A study of Mus musculus with 14 samples.

Results

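Binding of the transcription factor ETS1 was set against the acetylated histone mark H3K27ac in wild-type (WT) Th1 cells of mice. The question was which genes and places carry ETS1 with acetylation, ETS1 alone or acetylation alone. Both were mapped by CUT&RUN, in which an antibody directs a nuclease to its target in nuclei and the released DNA is sequenced. The libraries used were 4 of the 14 in the series, 2 for ETS1 in WT and 2 for H3K27ac in WT. All 4 came from strain C57BL/6J. The starting population was naive CD4+ T cells, taken from mouse spleens by negative selection, stimulated through CD3 and CD28 and kept in medium holding IL-12 at 10 ng/mL and IL-2 at 1 ng/mL until day 6, which gives Th1 cells. As other readouts, 2 ETS1 and 2 H3K27ac libraries of cells from C57BL/6J-Ets1-SE-KO mice (Ets1-SE-KO), 1 IgG control library of that genotype, 2 CTCF libraries of WT and 1 IgG library of WT were consulted. The extent of the deletion behind the label Ets1-SE-KO is not given, and the age of the mice is not given. A member was a region of the genome in which both libraries of an antibody had a called peak, peaks with 1 bp or more in common being merged. This gave 9312 ETS1 regions and 19285 H3K27ac regions.

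ETS1 is the founding member of the ETS family of transcription factors, which bind DNA through a conserved domain that reads the core GGAA, most tightly within a longer site such as CCGGAAGT. It is abundant in resting T cells and takes part in T cell development, in the survival of naive T cells and in the Th1 programme. Acetylation of histone H3 at lysine 27 is laid down by p300 and CBP at active promoters and enhancers, and long stretches of it are used to mark super-enhancers. A site with ETS1 and acetylation is thus a bound element in active chromatin, while either can occur without the other. Other ETS proteins, such as the GABP complex, read much the same motif, and the antibody's behaviour towards them was not tested.

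By their titles, the WT libraries of an antibody are technical replicates from 1 biological replicate, so spreads over them are technical. The titles give the WT libraries of both antibodies the same biological replicate number. In the list names, the WT sample of ETS1 and that of H3K27ac have different numbers, so the cells of the ETS1 and of the H3K27ac libraries may be different preparations. These names also carry 1 number for the ETS1 and IgG lists and another for the H3K27ac and CTCF lists, and antibody and this number cannot be told apart. Depth cannot be known from peak lists. ETS1 had 14013 peaks in WT library 1 and 23419 in WT library 2, covering 7.31 and 13.7 Mb. H3K27ac had 24711 and 24581 peaks, covering 21.8 and 21.3 Mb. The ETS1 lists were thus unequal. Of the peaks in ETS1 library 1, 67.8% overlapped one in library 2, against 40.0% in the other direction. The H3K27ac lists matched more closely, at 80.2% and 81.3%. The shared length was 32.5% of the joint length for ETS1 and 65.3% for H3K27ac. A region called alone is therefore one in which the other antibody's peak was missing from at least 1 of 2 lists. The IgG control gave 285 peaks in Ets1-SE-KO cells, of which 61.1% fell in ETS1 regions and 72.3% in H3K27ac regions, and 2 peaks in WT cells, of which none did. IgG peaks of Ets1-SE-KO cells touched 2.08% of ETS1 regions with H3K27ac and 0.648% of ETS1 regions alone. In these bulk populations, fewer cells carrying a signal and less signal per cell cannot be told apart.

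The cells carried the acetylation of T cells. H3K27ac was called within 2 kb of the start of 22 of 24 T cell identity genes, among them Cd3e, Cd4 and Thy1. It was called at 1 of 10 B cell genes, 3 of 11 myeloid genes, 2 of 10 genes of NK and CD8 T cells, 1 of 8 erythroid genes and 1 of 14 genes of other tissues. Over all 21887 protein-coding genes the share was 42.9%. Of the 29 genes of the Th1 list 23 were acetylated, including Tbx21, the gene of T-bet, which directs the Th1 fate. Ifng, the signature cytokine gene of these cells, was not, with 154 and 0 bp of H3K27ac peaks in the window of its start.

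Promoters of some of the strongest regions of each kind are shown here, together with that of Tbx21. Starts with ETS1 and acetylation can so be read beside starts with ETS1 or acetylation alone, where the other antibody had no region called in both WT lists. Each is the stretch of 250 bases before a gene start, 5′ to 3′ on the strand of the gene, from RefSeq on GRCm38.p6. The capitals mark CGGAA on either strand, the ETS core with the base most often found before it. Fbxw11, Pih1d2 and Alkbh1 lie in the best-ranked regions with ETS1 and H3K27ac together, Polr1b and Mzf1 in those with ETS1 alone, and Vps54 and Dennd6a in those with H3K27ac alone.
Fbxw11, chr11:32642305-32642554, strand plus: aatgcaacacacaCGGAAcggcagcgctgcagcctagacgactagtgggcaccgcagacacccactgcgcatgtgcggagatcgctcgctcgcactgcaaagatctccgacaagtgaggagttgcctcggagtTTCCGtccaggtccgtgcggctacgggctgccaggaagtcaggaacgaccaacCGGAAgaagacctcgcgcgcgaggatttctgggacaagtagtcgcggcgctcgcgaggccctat
Pih1d2, chr9:50617071-50617320, strand plus: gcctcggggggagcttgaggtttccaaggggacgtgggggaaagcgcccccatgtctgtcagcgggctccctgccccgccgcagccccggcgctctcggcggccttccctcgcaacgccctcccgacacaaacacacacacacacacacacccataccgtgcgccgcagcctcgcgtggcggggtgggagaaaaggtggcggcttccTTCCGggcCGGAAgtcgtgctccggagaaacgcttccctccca
Alkbh1, chr12:87443840-87444089, strand minus: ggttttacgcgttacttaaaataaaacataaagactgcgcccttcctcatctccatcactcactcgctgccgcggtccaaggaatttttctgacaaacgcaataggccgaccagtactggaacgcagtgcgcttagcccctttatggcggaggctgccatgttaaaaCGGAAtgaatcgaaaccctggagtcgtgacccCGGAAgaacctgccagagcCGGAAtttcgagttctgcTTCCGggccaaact
Tbx21, chr11:97115332-97115581, strand minus: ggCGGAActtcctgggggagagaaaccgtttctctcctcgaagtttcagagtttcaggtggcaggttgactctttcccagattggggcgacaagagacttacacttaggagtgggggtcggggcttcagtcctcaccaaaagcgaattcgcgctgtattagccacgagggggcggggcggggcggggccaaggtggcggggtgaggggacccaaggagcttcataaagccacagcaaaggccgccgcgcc
Polr1b, chr2:129100746-129100995, strand plus: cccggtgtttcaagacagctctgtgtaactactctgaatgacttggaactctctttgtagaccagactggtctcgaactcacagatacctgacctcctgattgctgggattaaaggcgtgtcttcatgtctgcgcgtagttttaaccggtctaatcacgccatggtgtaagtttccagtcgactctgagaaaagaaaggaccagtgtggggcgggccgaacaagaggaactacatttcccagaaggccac
Mzf1, chr7:13054626-13054875, strand minus: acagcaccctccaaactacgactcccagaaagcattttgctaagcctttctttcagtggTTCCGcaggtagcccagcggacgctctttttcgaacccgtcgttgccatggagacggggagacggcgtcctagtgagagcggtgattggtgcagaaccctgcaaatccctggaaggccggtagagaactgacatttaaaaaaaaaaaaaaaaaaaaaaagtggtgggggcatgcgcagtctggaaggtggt
Vps54, chr11:21238782-21239031, strand plus: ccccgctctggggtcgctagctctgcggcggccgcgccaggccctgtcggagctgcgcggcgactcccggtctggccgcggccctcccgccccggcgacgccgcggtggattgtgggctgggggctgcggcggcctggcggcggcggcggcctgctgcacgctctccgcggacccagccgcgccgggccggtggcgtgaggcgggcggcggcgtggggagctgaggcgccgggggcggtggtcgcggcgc
Dennd6a, chr14:26579300-26579549, strand plus: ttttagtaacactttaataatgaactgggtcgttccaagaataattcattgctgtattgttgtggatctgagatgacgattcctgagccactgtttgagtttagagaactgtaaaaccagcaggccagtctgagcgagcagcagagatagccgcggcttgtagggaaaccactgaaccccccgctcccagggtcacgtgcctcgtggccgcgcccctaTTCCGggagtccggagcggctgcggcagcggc

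Alkbh1 had 4 such matches in these bases, Fbxw11 3, Pih1d2 2, and Tbx21, Mzf1 and Dennd6a 1 each. Polr1b and Vps54 had none. Some promoters of the strongest regions were read but are not printed. Slirp, which shares the region of Alkbh1, had 6 matches. Mlst8 (ETS1 alone) and Zdhhc21 (H3K27ac alone, ranked above Dennd6a) had 0. The printed bases lay under an ETS1 region only in part at some starts. All 250 did so at Pih1d2, Tbx21 and Mzf1, 134 at Fbxw11, with 2 of its matches, 64 at Alkbh1, with 3 of its matches, and 47 at Polr1b, so most of the ETS1 region of Polr1b lies outside these letters. None did at Vps54 and Dennd6a. WT ETS1 library 1 had 0 bp in their H3K27ac regions and in that of Zdhhc21, while library 2 had 969, 633 and 205 bp. In Ets1-SE-KO cells ETS1 library 1 had 1082, 351 and 470 bp there and library 2 had 0 bp. At Mzf1 the H3K27ac lists covered 744 and 868 bp in Ets1-SE-KO cells and 0 bp in WT cells. These starts are thus not shown to lack the other antibody's target. The ETS1 region at Polr1b had a peak in all 4 ETS1 lists, of both genotypes. The Vps54 promoter, of which 82.7% of the 300 bases around the start are G or C, was acetylated.

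Among 21238 promoters of 300 bases (250 before a start and 50 after it), CGGAA on either strand was found in 60.8% of those touched by ETS1 and H3K27ac regions, 46.2% of those touched by ETS1 alone, 49.95% of those touched by H3K27ac alone and 19.2% of those touched by neither. Over all promoters the share was 35.5%. These and the motifs below were searched on both strands. The longer site CCGGAAGT was found in 11.6%, 6.17%, 8.04% and 1.22% of the same 4 sets, against 5.15% of all promoters. It contains CGGAA, so the counts are not separate. Base composition moved with these sets: the median share of G and C was 63.7%, 59.3%, 59.7% and 50.7% in the same order. Within the promoters of 50 to 60% G and C, CCGGAAGT was in 13.3% of those with both, 9.90% with ETS1 alone, 9.96% with H3K27ac alone and 1.90% with neither. In that band, too, promoters with both had the site most often and promoters with neither least often, with the 2 sets of 1 antibody alone close to each other. The bare core GGAA, by contrast, was in 95.6%, 94.9%, 95.4% and 95.9% of the 4 sets, and told them apart by little. The site GGGCGG, read by SP and KLF proteins, was in 73.3%, 64.0%, 62.5% and 28.1%. Most of that difference was gone at 60 to 70% of G and C, with 79.8% of promoters with both and 71.5% with neither. Above 70% the shares were 92.0% and 91.9%. A difference stayed in the lower bands, with 55.5% and 27.8% at 50 to 60% and 23.1% and 4.93% below 50%. The motif of RUNX factors, TGTGGTT, and that of AP-1, TGANTCA, both of them partners of ETS1 in T cells, ran the other way, at 2.94% and 3.45% of promoters with both and 5.80% and 9.34% of promoters with neither. At 60 to 70% of G and C the direction for TGTGGTT turned, with 3.16% of promoters with both and 2.78% with neither. There TGANTCA was in 3.23% and 5.56%. In the other bands promoters with neither had TGTGGTT more often. With both and neither it was in 3.97% and 7.84% below 50%, 4.18% and 5.34% at 50 to 60%, and 0.772% and 0.832% above 70%. The centre of CCGGAAGT lay close to the start in all 4 sets. Its median position was −29 in promoters with both (63.8% of 815 matches within 50 bases of the start), −31 with ETS1 alone (68.8% of 48), −17 with acetylation alone (72.0% of 189) and −40.5 with neither (57.7% of 156).

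Most ETS1 lay in acetylated chromatin, while most acetylated regions had no ETS1. Of 9312 ETS1 regions 7923, or 85.1%, overlapped an H3K27ac region and 1389 stood alone. Of 19285 H3K27ac regions 7839, or 40.6%, overlapped an ETS1 region and 11446 stood alone. By length, 76.4% of the bases under ETS1 were acetylated and 30.2% of the acetylated bases were under ETS1. The overlaps were mostly one to one: 7873 ETS1 regions met a single H3K27ac region, and 7717 H3K27ac regions met a single ETS1 region. ETS1 regions with H3K27ac had a median width of 899 bp, against 559 bp for those alone. H3K27ac regions with ETS1 had a median of 1060 bp, against 759 bp for those alone.

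The 85.1% depends on asking for ETS1 in both libraries. Single lists gave 62.3% for ETS1 library 1 and 52.1% for ETS1 library 2 as the share overlapping H3K27ac. The counterpart, H3K27ac regions with ETS1, was 43.6% with library 1, 59.9% with library 2 and 62.7% with a peak in either, an alternative added after the data were seen. With peaks of −log10 q of at least 5 only, 1181 ETS1 and 3836 H3K27ac regions were left, and the shares were 48.3% and 14.9%.

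Regions with both lay near gene starts more often than regions of either antibody alone. ETS1 regions lay within 2 kb of the start of a protein-coding gene in 80.5% of cases where they were acetylated and 54.8% where they were alone. H3K27ac regions did so in 80.7% of cases with ETS1 and 20.8% alone, and 57.5% of those alone lay in gene bodies. Turned round, 72.7% of the 8705 H3K27ac regions near a start had ETS1, against 14.3% of the 10580 distal ones. With peaks of −log10 q of at least 5 these shares were 16.4% and 4.26%. They were 88.7% and 36.2% with ETS1 library 2 on its own, 74.5% and 18.2% with library 1, and 90.5% and 39.8% with either. Of the 7141 ETS1 regions near a start 89.3% were acetylated, and of the 2171 distal ones 71.1%. The peaks of single libraries showed the same preference. ETS1 peaks were near a start in 57.0% and 44.7% of cases, and H3K27ac peaks in 38.1% and 38.2%. The ETS1 libraries were both higher and did not overlap with the H3K27ac libraries. The values were 50.8 ± 8.70% against 38.2 ± 0.0679% (SD, n = 2 technical replicates each). The exact two-sided permutation p was 0.333, the smallest that 2 libraries against 2 can give, so this test could not decide.

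Where ETS1 and H3K27ac met at a start, the midpoints of both kinds of region mostly lay just downstream of it. The midpoints of ETS1 regions with H3K27ac lay a median of 124 bp downstream of the nearest start (n = 5364 with a stranded start), and those of ETS1 alone 85 bp downstream (n = 591). H3K27ac regions with ETS1 had their midpoints 153 bp downstream and those alone 158 bp. Over all 7975 overlapping pairs, distal ones included, 7492 had the ETS1 midpoint inside the acetylated region. In 64.6% of these it fell in the middle of 3 equal parts of that region. The share was 38.6% in the 588 of them whose H3K27ac region was wider than 3 kb. Overlapping ETS1 and H3K27ac regions had median widths of 899 and 1060 bp, and the part of width in these shares was not tested. At the midpoint of ETS1 regions near a start, 84.6% of positions were acetylated, and 14.2% at 1 kb towards higher coordinates, whatever the strand of the gene. At distal ETS1 midpoints the shares were 66.6% and 19.6%.

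**Figure D1:**
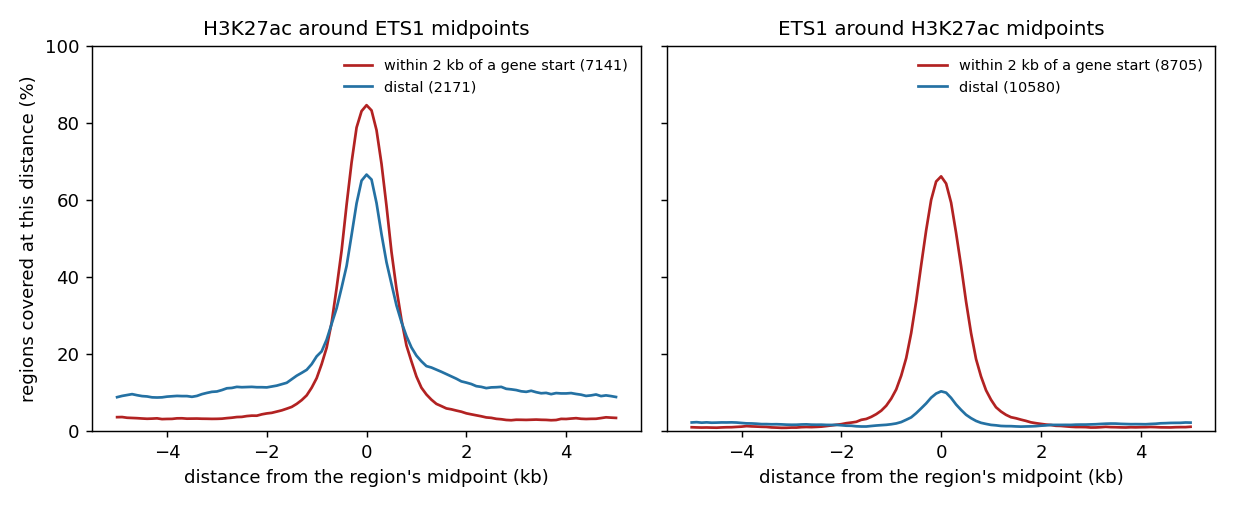
The left panel gives the percentage of ETS1 regions covered by an H3K27ac region at each distance in kb from the ETS1 midpoint, and the right panel the percentage of H3K27ac regions covered by an ETS1 region around the H3K27ac midpoint. Red lines are regions within 2 kb of a gene start and blue lines distal ones, with numbers of regions in the legend; at the midpoint ETS1 covers 66.1% of H3K27ac regions near a start and 10.4% of distal ones.

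The rank of acetylation went with ETS1 more than its width did. Each region was given the percentile of the authors' −log10 q in the weaker of its libraries. From the lowest to the highest decile of H3K27ac by this rank the share with ETS1 was 9.23%, 10.4%, 14.5%, 19.3%, 26.6%, 39.0%, 52.0%, 67.2%, 78.5% and 89.8%. Every step was upward. The ETS1 libraries gave 12.6% and 24.4% in the lowest decile and 90.8% and 97.8% in the highest. Place moved with rank, since 15.1% of the lowest decile and 92.2% of the highest were near a start. Within the regions near a start the share still went from 35.3% in the lowest decile to 91.4% in the highest, and among distal regions from 4.58% to 71.5%. Bases under ETS1 per kb of acetylated sequence went from 64.9 to 664. With peaks of −log10 q of at least 5 the gradient shrank to 11.5% in the lowest and 17.7% in the highest decile, and with ranks by the authors' fold value it was 31.5% and 87.2%.

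By width the share was 15.2%, 27.6%, 34.1%, 37.1%, 42.8%, 46.6%, 51.6%, 53.3%, 51.6% and 46.7% from the narrowest decile (up to 326 bp) to the widest (2291 to 23912 bp). It was highest in decile 8. The bases under ETS1 per kb of H3K27ac were 140 in the narrowest, 391 in decile 8 and 205 in the widest decile, so the widest regions held ETS1 over less of their length. Near a start the widest decile held ETS1 in 80.6% of regions and the narrowest in 38.7%. Distal regions had ETS1 in 28.5% of the widest and 7.51% of the narrowest decile. The direction turned with peaks of −log10 q of at least 5 only, where the widest decile had ETS1 in 7.03% and the narrowest in 21.7% of regions. Width and rank of H3K27ac were themselves related, with Spearman's rho of 0.37 over 19285 regions.

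When rank and width were crossed, the share differed more across rank than across width. Among distal regions in the top quintile by rank, ETS1 was in 52.5% of 40 regions in the narrowest quintile and 65.1% of 232 in the widest. Among distal regions in the bottom quintile by rank it was in 5.78% of 1038 and 0% of 165. Near a start the top quintile by rank gave 68.7% of 150 and 91.6% of 902, and the bottom quintile 30.98% of 255 and 41.7% of 12. In overlapping pairs (n = 7975) the rank of ETS1 and the rank of H3K27ac had a rho of 0.23, the rank of ETS1 and the width of H3K27ac −0.01, and the 2 widths 0.50. These are descriptions across regions, which share libraries and are not independent.

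**Figure D2:**
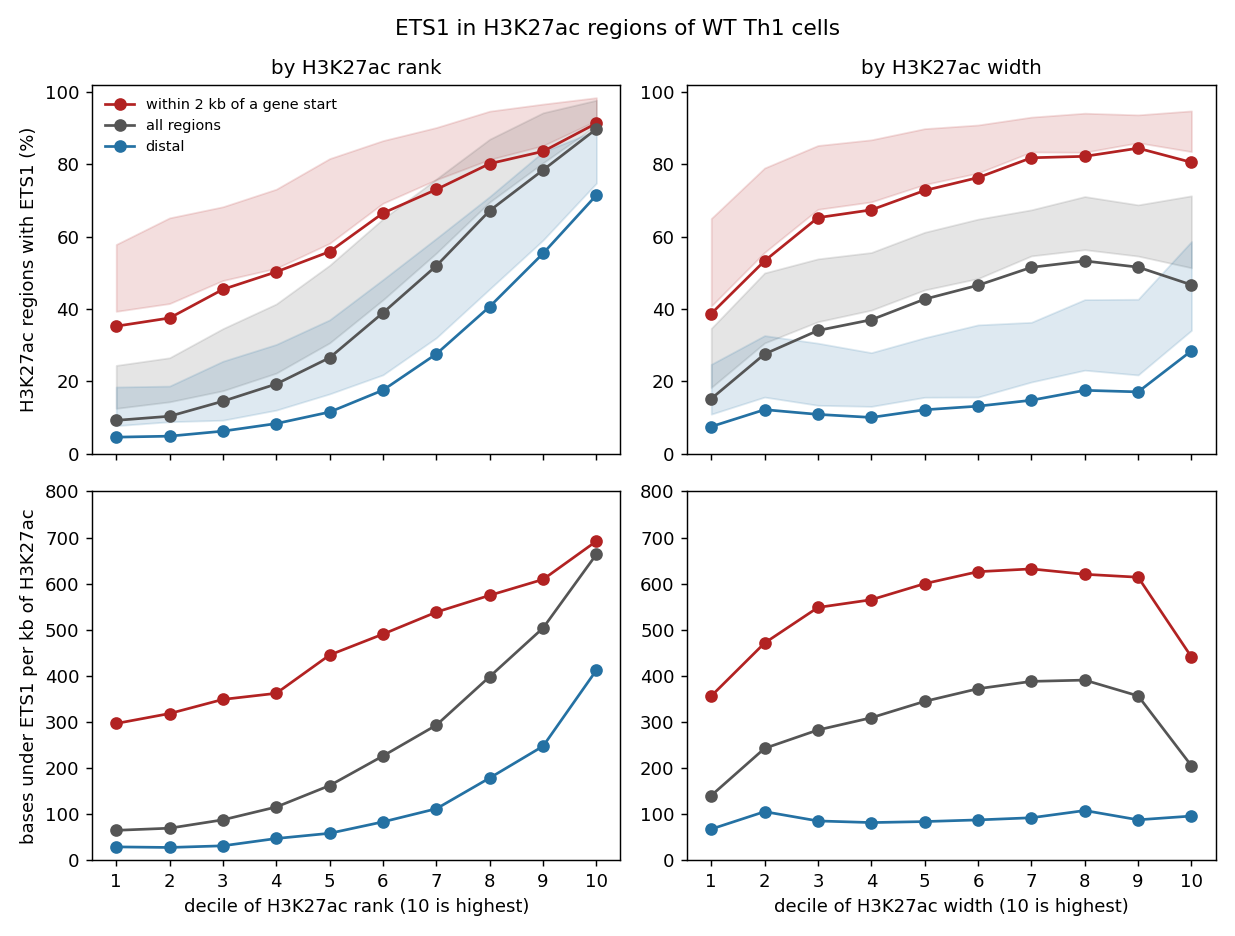
Top panels give the percentage of H3K27ac regions that overlap an ETS1 region, and bottom panels the bases under ETS1 per kb of H3K27ac, by decile of H3K27ac rank (left) and width (right). Points are regions called in both ETS1 libraries, and shading spans the shares with ETS1 library 1 and with ETS1 library 2; by rank the share over all regions goes from 9.23% to 89.8%, and by width from 15.2% to a peak of 53.3%.

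Rank of ETS1 also went with acetylation, though from a higher base. From the lowest to the highest decile by ETS1 rank, the share with H3K27ac was 61.8%, 73.6%, 77.8%, 85.4%, 86.5%, 89.6%, 92.5%, 94.1%, 95.2% and 94.5%. The last step was downward by less than 1 percentage point. By ETS1 width it was 63.7% in the narrowest and 95.0% in the widest decile. With peaks of −log10 q of at least 5 only, the highest decile by ETS1 rank had H3K27ac in 43.7% of regions. All ETS1 regions left had it in 48.3%, so the highest decile did not stand above them there.

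Among all H3K27ac regions with ETS1, 80.7% lay near a gene start. The best-ranked regions with both did so in a like share, 8 of 10. They were at Fbxw11 (a substrate receptor of a ubiquitin ligase), Pih1d2, Alkbh1 (a dioxygenase that demethylates nucleic acids), Yipf4, Vcp (an ATPase that extracts ubiquitinated proteins), Xpot (the exportin of tRNA), Csnk2a1 (the catalytic subunit of casein kinase 2) and Cand1 (an exchange factor of cullin ligases), with Pcdh12 and Cr2 as the nearest genes of the remaining 2. At Fbxw11, the first, ETS1 covered chr11:32642421-32643271 and H3K27ac chr11:32642175-32644233. The authors' fold over background there was 11.7 and 7.16 for ETS1 and 8.23 and 8.71 for H3K27ac. At Alkbh1 it was 9.002 and 10.9 for ETS1 and 10.2 and 11.1 for H3K27ac. The region nearest to Cr2, 65002 bp from the gene, stood apart: it was 191 bp wide, with folds of 2.44 and 2.57 for ETS1 and 2.69 and 2.91 for H3K27ac, and CTCF peaks covered all of it in both CTCF libraries. IgG peaks of Ets1-SE-KO cells lay in the regions of Vcp, Xpot and Csnk2a1, over 171, 218 and 173 bp, and their part in the calls was not tested.

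The best-ranked acetylated regions without ETS1 were without it in 1 of the 2 WT lists. They lay at Vps54, Zdhhc21, Dennd6a, Macroh2a1, Slc35d1, Zup1 and Urgcp, near a start, and between genes with 9530057J20Rik, Gm15319 and Adam6b as the nearest. In all 10 ETS1 library 1 had 0 bp, and in all 10 ETS1 library 2 had a peak, of 205 to 1465 bp. At Macroh2a1, which encodes a histone variant, ETS1 covered 1108 and 745 bp in Ets1-SE-KO cells and 0 and 1465 bp in WT cells. The Ets1-SE-KO lists had a peak at 9 of the 10 (library 1) and at 3 (library 2). The same held more widely: of the 196 H3K27ac regions alone in the top decile by rank, 91.3% and 37.8% had a peak in the ETS1 lists of Ets1-SE-KO cells, 9.69% in WT ETS1 library 1 and 78.1% in WT library 2. Of the 1750 in the bottom decile, 24.1% and 4.40% had one in the Ets1-SE-KO lists, 3.89% in WT library 1 and 16.8% in WT library 2. Over all 11446 regions with acetylation alone, 32.5% had a peak in ETS1 library 2 and 5.48% in library 1, and 46.7% had none in any of the 4 ETS1 lists of either genotype. Those 5342 regions were near a start in 7.11% of cases.

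Strong ETS1 regions without acetylation were few, 51 of 932 in the top decile by ETS1 rank. Of the 51, 12 (23.5%) and 8 (15.7%) had a peak in the WT H3K27ac lists. In the H3K27ac lists of Ets1-SE-KO cells 34 (66.7%) and 37 (72.5%) had one. The 10 best-ranked lay at Polr1b, Mzf1, Mlst8, Alg8, Rnf121, Nosip, Ensa and Abcb8, near a start, and between genes with Ly6c2 and Csf2ra as the nearest. Polr1b encodes a subunit of RNA polymerase I. Its region, chr2:129100949-129101415, had ETS1 folds of 12.6 and 10.0 and no H3K27ac peak in any list of Ets1-SE-KO or WT cells. Mzf1, a zinc finger factor of blood cells, had 934 and 951 bp of ETS1 in WT. The lists of H3K27ac covered 744 and 868 bp there in Ets1-SE-KO cells, and 0 and 0 bp in WT cells. Of the 10, 8 had a peak in each H3K27ac library of Ets1-SE-KO cells, 4 in WT library 1 and 2 in WT library 2. The regions nearest to Ly6c2 and Csf2ra had ETS1 folds of 2.16 and 2.08 and of 3.10 and 2.96, and CTCF peaks covered both regions in full in both CTCF libraries. The IgG library of Ets1-SE-KO cells had a peak over 195 bp of the region nearest to Csf2ra. Of all 1389 ETS1 regions alone, 17.2% had a peak in H3K27ac library 1 and 14.3% in library 2. No H3K27ac list of either genotype had a peak in 616 of them (44.3%), of which 47.2% were near a start. The median gap from an ETS1 region alone to the nearest H3K27ac region was 25800 bp, and 3.82% lay within 1000 bp of one.

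ETS1 regions with acetylation were found again more often in other cells than those without. Of all 9312, 69.8% had a peak in both ETS1 lists of Ets1-SE-KO cells, 76.1% of those with H3K27ac and 34.4% of those alone. These shares rest on asking for both WT libraries: with WT ETS1 library 1 on its own they were 46.9%, 69.5% and 9.59%, and with library 2 on its own 31.97%, 55.6% and 6.32%. The higher share stayed with the acetylated regions. One by one, these lists had a peak in 94.9% (library 1) and 77.5% (library 2) of ETS1 regions with H3K27ac, and in 73.2% and 37.7% of those alone. Each list gave the higher share for acetylated regions. It did so in each of the 10 deciles of ETS1 rank as well: in the lowest decile library 2 found 43.3% with H3K27ac and 14.3% alone, and in the highest 97.6% and 94.1%. Distal regions gave 79.8% and 51.5% with H3K27ac, and 56.4% and 22.6% alone. With peaks of −log10 q of at least 5 the shares in both lists were 97.7% with H3K27ac and 95.1% alone. ETS1 regions with H3K27ac were also wider, with a median of 899 bp against 559 bp, and the part of width in these shares was not tested. The Ets1-SE-KO lists were unequal, with 40705 and 9344 peaks, and by their titles they come from different biological replicates. The part of these differences in the shares was not tested.

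**Figure D3:**
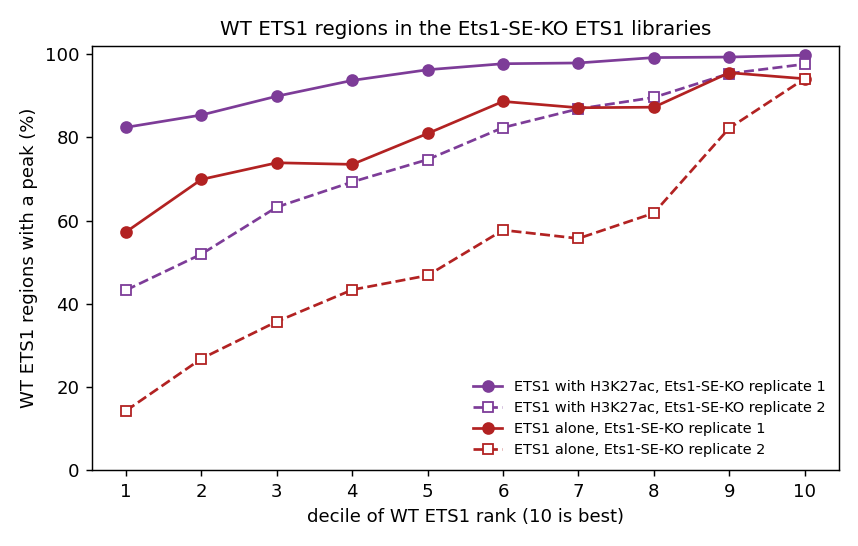
The percentage of WT ETS1 regions in which an ETS1 library of Ets1-SE-KO cells had a peak is plotted against the decile of WT ETS1 rank. Purple marks ETS1 regions with H3K27ac and red those alone, filled circles Ets1-SE-KO library 1 and open squares library 2; in library 2 the share goes from 43.3% to 97.6% with H3K27ac and from 14.3% to 94.1% alone.

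CTCF, the protein that anchors chromatin loops, was called in many of the same places. Peaks of the 2 CTCF libraries of WT touched 80.7% and 81.8% of ETS1 regions with H3K27ac, 58.2% and 58.7% of ETS1 regions alone, 81.7% and 82.9% of H3K27ac regions with ETS1 and 27.8% and 28.5% of H3K27ac regions alone. The sets with ETS1 were higher in both libraries. Among H3K27ac regions near a start the shares were 84.1% and 85.0% with ETS1 and 52.2% and 53.5% alone. The sets also differed in width and rank. H3K27ac regions had median widths of 1060 bp with ETS1 and 759 bp alone, and median ranks of 77.1 and 37.0. ETS1 regions had 899 bp with H3K27ac and 559 bp alone, and ranks of 63.9 and 36.5. The part of width and rank in the CTCF shares was not tested.

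At gene starts, 7285 of the 21887 protein-coding genes (33.3%) had ETS1 and H3K27ac regions that overlapped within 2 kb. H3K27ac without ETS1 was at 2050 (9.37%), ETS1 without H3K27ac at 731 (3.34%) and neither at 11773 (53.8%), and 48 held both antibodies without such a pair. Of the 9383 acetylated genes 77.6% had ETS1 in the pair. With ETS1 library 1 on its own, H3K27ac alone was at 1842 genes and ETS1 alone at 1127. Library 2 on its own gave 659 and 1983. If ETS1 in either library counted, an alternative added after the data were seen, 1476 of the 2050 genes with acetylation alone (72.0%) joined those with both. With peaks of −log10 q of at least 5, 686 genes had both, among them 6 of the mitochondrial ribosome list, 6 of the spliceosome and RNA processing list, 3 ribosomal protein genes and 2 proteasome genes, and none of the T cell receptor signalling, activation, T cell identity or Th1 lists. For 4395 genes no stranded start was at hand and both gene ends were used.

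Genes of T cell receptor signalling carried both. Of 24, 20 had ETS1 with H3K27ac at the start and 3 had H3K27ac alone, against 33.3% and 9.37% of all genes. Among the 23 acetylated genes of this list 87.0% had both, against 77.6% of all acetylated genes. Those with both included Lck and Fyn, the kinases that phosphorylate the receptor, the adaptors Lat and Lcp2, the phospholipase Plcg1, Bcl10 and Malt1, which act towards NF-κB, and Nfatc1, Nfatc2 and Nfatc3. At Lat, ETS1 covered 2053 and 2099 bp of the window and H3K27ac 2567 and 2189 bp. At Lck the lengths were 1288 and 2397 bp for ETS1 and 5449 and 5956 bp for H3K27ac. The exceptions were Zap70, Prkcq and Itpkb. Zap70, the kinase that binds the phosphorylated receptor, had ETS1 lengths of 0 and 2755 bp beside 8485 and 8095 bp of H3K27ac, so only ETS1 library 2 had peaks. All 3 exceptions had a peak in ETS1 library 2 and none in library 1. Grap2 had neither.

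Of 34 activation genes 27 had both, 4 H3K27ac alone and 1, Fos, ETS1 alone, against 33.3%, 9.37% and 3.34% of all genes. Of the acetylated activation genes 87.1% had both, against 77.6% of all acetylated genes. Myc, the driver of growth, had 2275 and 3271 bp of ETS1 and 2944 and 2425 bp of H3K27ac. Nr4a3, an immediate early nuclear receptor, had 2693 and 4001 bp of ETS1 and 1510 and 1595 bp of H3K27ac, so ETS1 covered more of this window than acetylation did. The NF-κB subunit Nfkb2 had 2728 and 2614 bp of ETS1 and 2859 and 2870 bp of H3K27ac. Dusp2, a phosphatase of MAP kinases, had 1420 and 3363 bp of ETS1 and 4001 and 3721 bp of H3K27ac. With acetylation alone stood Il2ra, Nr4a1, Nfkb1 and Cd40lg, all 4 with an ETS1 peak in library 2 in the window. Nr4a1 and Nfkb1 had peaks in library 1 as well, of 288 and 194 bp, which formed no region called in both ETS1 lists there. Fos had 621 and 392 bp of ETS1 and 0 and 160 bp of H3K27ac. Cd69 and Il2 had neither at the start.

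Of the 24 T cell identity genes 12 had both and 9 H3K27ac alone, against 33.3% and 9.37% of all genes. Among those acetylated, 54.5% had both, against 77.6% of all acetylated genes. With ETS1 library 2 on its own 17 of 24 had both, and the difference from other lists was not tested. With both stood Cd3e, Cd247, Cd4, Cd5, Cd6, Cd2, Thy1, Satb1, Runx1, Tcf12, Ikzf3 and Myb. Satb1, a chromatin organizer, had 2060 and 3183 bp of ETS1 and 6098 and 5587 bp of H3K27ac. With acetylation alone stood Cd3d, Cd3g, Cd28, Ptprc, Ptprcap, Bcl11b, Ikzf1, Cd27 and Cd96, of which 5 had a peak in ETS1 library 2 and 4 in neither. At Ptprcap ETS1 had 0 and 0 bp and H3K27ac 3371 and 2802 bp. At Cd3g ETS1 had 0 and 523 bp and H3K27ac 3329 and 2607 bp.

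Th1 genes split between both and acetylation alone: 9 of 29 had both and 14 H3K27ac alone, with 6 having neither. The share with both was close to the 33.3% of all genes, while acetylation alone was at 48.3% of the list and 9.37% of all genes. Among the 23 acetylated Th1 genes 39.1% had both, against 77.6% of all acetylated genes. Tbx21 had 908 and 1583 bp of ETS1 and 2695 and 2691 bp of H3K27ac. Runx3, its partner, had 1648 and 3426 bp of ETS1 and 5193 and 5348 bp of H3K27ac, and Hlx, a homeobox factor, 1174 and 1725 bp of ETS1 and 620 and 685 bp of H3K27ac. Id2, the cytokine genes Tnf and Lta and the receptor chains Il12rb2 and Ifngr1 had both too. Those with acetylation alone included the effector and receptor genes Gzmb, Prf1, Fasl, Nkg7, Il18r1, Il12rb1, Havcr2, Ccl4, Il2ra and Ifngr2, and the regulators Stat4, Irf1 and Hopx. Of the 14 with acetylation alone, ETS1 library 2 had a peak at 7 and library 1 at 1 (Gzmb, with 246 and 0 bp beside 2332 and 1999 bp of H3K27ac). Irf1 had 0 and 1261 bp of ETS1 and 3031 and 2721 bp of H3K27ac. Stat4, which carries the IL-12 signal, had no ETS1 peak in either library and 1767 and 1781 bp of H3K27ac. With ETS1 library 2 on its own 16 of 29 Th1 genes had both, and with library 1 on its own 10. With equal numbers of best peaks per library it was 5 of 29.

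Lists of other T helper fates held pairs at 1 to 3 genes each. Of 12 Th2 genes 3 had both: Il4ra, Stat6 and Rad50, which holds the Th2 locus control region. Of 11 Th17 genes 1 had both (Batf, an AP-1 factor shared with activation), and of 11 Tfh genes 2 (Il6ra and Tox). The shares were 25%, 9.09% and 18.2%, against 33.3% of all genes. Of the acetylated genes, 3 of 6, 1 of 2 and 2 of 7 had both, against 77.6% of all acetylated genes. The lineage cytokines Il4, Il5, Il13, Il17a and Il17f had neither. Gata3, the Th2 regulator that all T cells need, had both antibodies without a pair in the window, with 492 and 422 bp of ETS1 and 176 and 150 bp of H3K27ac. In the Treg list 4 of 10 genes had ETS1 alone and 3 of 10 had both, against 3.34% and 33.3% of all genes. With both stood Ctla4, Tnfrsf4 and Tnfrsf18, which activated T cells also express. With ETS1 alone stood Ikzf2, Nrp1, Entpd1 and Lrrc32. Ikzf2 and Lrrc32 were placed by both gene ends, so their ETS1 may not lie at a start. Lrrc32 had 380 and 478 bp of ETS1 and 515 and 0 bp of H3K27ac. Entpd1 had 161 and 174 bp of ETS1. Nrp1 had 157 and 661 bp of ETS1 and 0 and 0 bp of H3K27ac. Ikzf2 had 460 and 766 bp of ETS1 and 196 and 166 bp of H3K27ac, so H3K27ac peaks were present but did not form a region called in both lists. Foxp3, the factor that defines these cells, had neither.

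Klf2, a factor of resting T cells that activation switches off, had ETS1 alone, with 753 and 2246 bp of ETS1 and 0 and 0 bp of H3K27ac. In the naive and memory list, which holds Klf2, 5 of 10 genes had both and 1 ETS1 alone, against 33.3% and 3.34% of all genes. Among its 8 acetylated genes the share was 62.5%, against 77.6% of all acetylated genes. Those with both included Lef1 (3788 and 4195 bp of ETS1, 4940 and 4823 bp of H3K27ac). Tcf7 was another (1223 and 2822 bp of ETS1, 2311 and 1640 bp of H3K27ac). Foxo1 was counted as H3K27ac alone although each ETS1 list had peaks at its start, of 364 and 643 bp, because these did not overlap each other. Il7r had 0 and 346 bp of ETS1 and 2628 and 3186 bp of H3K27ac.

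Genes that every cell uses often had both. Of 72 genes for ribosomal proteins 56 had both, 14 H3K27ac alone and 2 ETS1 alone (Rpl3 and Rpl39), against 33.3%, 9.37% and 3.34% of all genes. For the mitochondrial ribosome it was 59 of 76, for the proteasome 24 of 31 and for the spliceosome and RNA processing 22 of 31, while 9 of 22 histone genes had both. Among acetylated genes the share with both was 80.0% for ribosomal proteins, 86.8% for the mitochondrial ribosome, 80.0% for the proteasome and 75.9% for the spliceosome and RNA processing, against 77.6% of all acetylated genes, so all but the mitochondrial ribosome were within a few percentage points of it. For histone genes it was 9 of 18. Rpl13a had 2431 and 2720 bp of ETS1 and 2875 and 2850 bp of H3K27ac. Rps16 had 0 and 1073 bp of ETS1 and 2210 and 2168 bp of H3K27ac. Hnrnpa1 was counted as ETS1 alone with 1369 and 1399 bp of ETS1, since H3K27ac had 1691 bp in library 1 and 0 bp in library 2. Within the gene and 10 kb on either side, 65.2% of the H3K27ac regions of ribosomal protein genes had ETS1, against 27.2% for Th1 genes, 27.9% for T cell receptor signalling, 20.3% for T cell identity and 48.0% for all genes. Signalling and identity genes had a median of 6 and 4 H3K27ac regions per gene, ribosomal protein genes 2 and all genes 1.

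**Figure D4:**
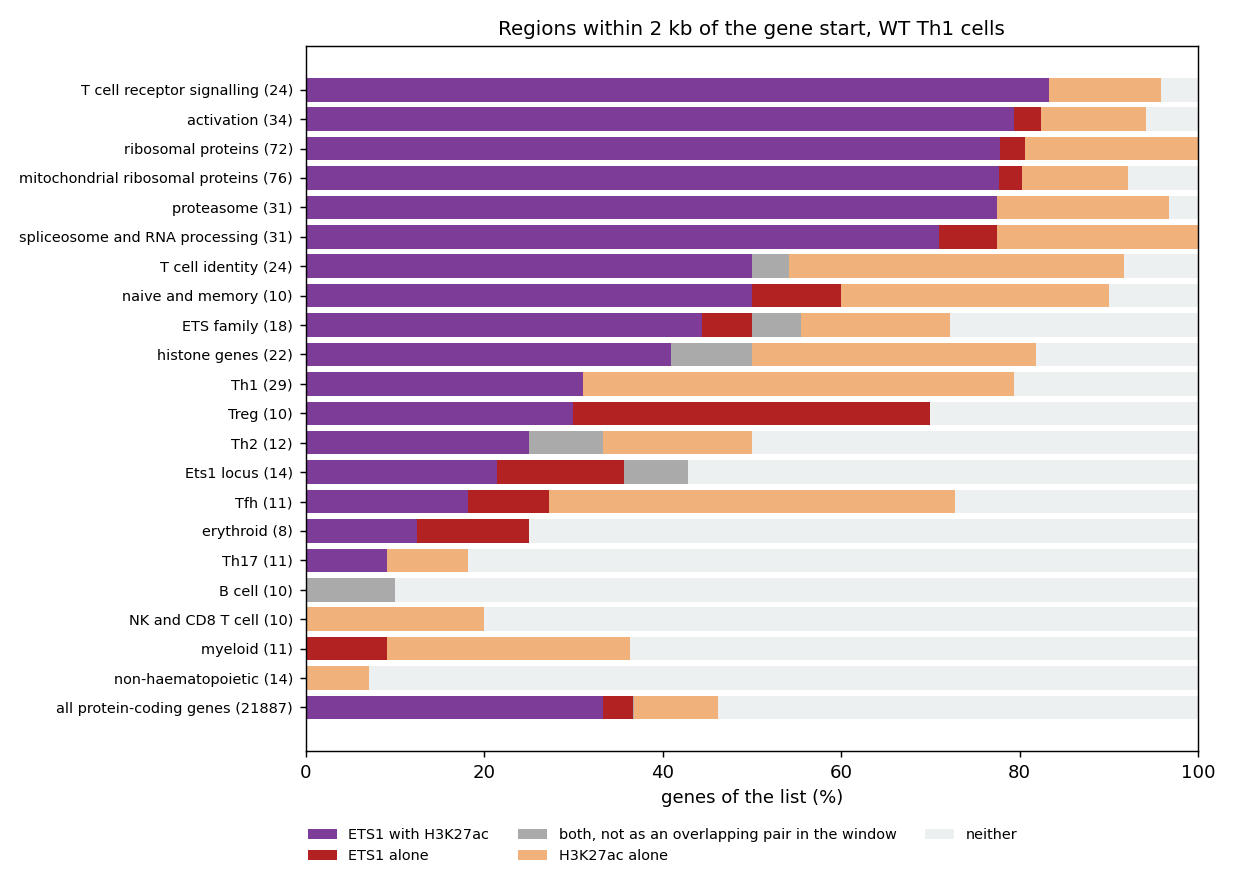
Each bar divides the genes of 1 list, with the number of genes in brackets, by what lay within 2 kb of the gene start; the horizontal axis is the percentage of genes. Purple is ETS1 with H3K27ac, red ETS1 alone, grey both antibodies without an overlapping pair in the window, orange H3K27ac alone and pale grey neither; T cell receptor signalling leads with 20 of 24 genes, and all genes stand at 33.3%.

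Among the ETS family, 8 of 18 genes had both at the start, against 33.3% of all genes, and of the 12 acetylated members 66.7% had both, against 77.6% of all acetylated genes. The 8 were Ets2, Elf1, Elf2, Elf4, Gabpa, Elk4, Etv6 and Erf. Gabpa, which encodes the DNA-binding subunit of the GABP complex, had 1759 and 1976 bp of ETS1 and 2046 and 2013 bp of H3K27ac. Elk3 and Spi1 were acetylated, with ETS1 peaks in library 2 only, and Etv3 was acetylated with none. Etv5 had 301 and 363 bp of ETS1 and no H3K27ac.

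At the locus of the factor itself acetylation covered more sequence than ETS1 did. Ets1 spans chr9:32636241-32757820 (GRCm38.p6). Neither end had ETS1 or H3K27ac within 2 kb, and starts inside the gene were not examined. Over the gene and 10 kb on either side there were 10 H3K27ac regions, 4 with ETS1, a share close to the 40.6% of all H3K27ac regions. ETS1 covered 3.23 and 9.31 kb and H3K27ac 46.6 and 44.1 kb. The third widest H3K27ac region of the genome, chr9:32709428-32732958, lies in it and had no ETS1 region: ETS1 library 1 had 0 bp there and library 2 had 2142 bp. Fli1, the neighbouring ETS gene, had 7 H3K27ac regions, 1 with ETS1. Of the other 12 genes of the locus list, Nfrkb, Prdm10 and Zbtb44 had both at the start, Aplp2 and St14 had ETS1 alone, and Kcnj1, Kcnj5, Arhgap32, Kirrel3, Tmem45b, Barx2 and Adamts15 had neither.

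The widest acetylated regions held ETS1 at points rather than throughout. Of the 10 widest, 7 held ETS1, 17 regions in all, at 125 bases under ETS1 per kb. Among the 1000 widest the share was 48.2%, at 182 bases per kb, so the 10 widest did not have a greater density. The widest, chr7:80397852-80421763 next to Furin, a protease that matures cytokines, measured 23912 bp and held 3 ETS1 regions over 20.3% of its length. The region inside Ago2, of the RNA silencing complex, held 5 over 25.3%, the most of any H3K27ac region. The region next to Junb, an AP-1 subunit, was 11560 bp wide and held 4 over 59.6%. Cd2, an adhesion receptor of T cells, held 3 over 28.8%. Slc2a1, the main glucose transporter, and Sbno2 held 1 each, and Laptm5 and Arhgef10 2 each. No ETS1 region was in those of Ets1, Ikzf1, a lymphoid zinc finger factor, and Cd69, an early activation receptor. At all 3 ETS1 library 1 had 0 bp, while library 2 had 2142, 1261 and 396 bp. The remaining regions with 3 ETS1 regions among the 10 with the most lay at Tspoap1, Tnip1, Dnajb12, Kif21b, E2f2 and Mgat1.

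**Figure D5:**
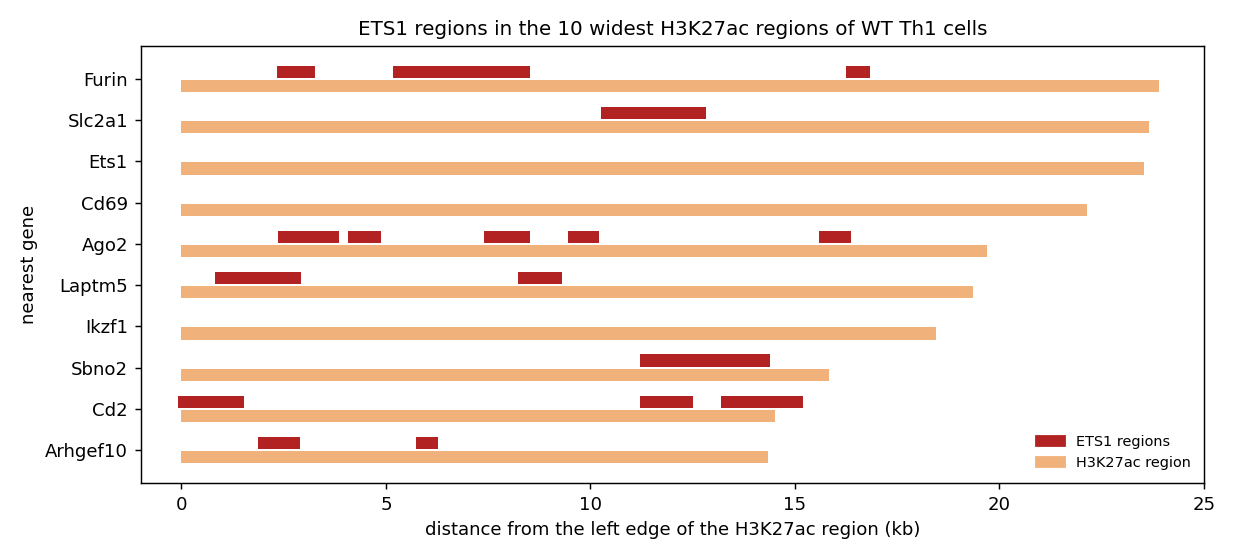
The 10 widest H3K27ac regions are drawn to scale in orange from their left edge, in kb, in order of width and named by the nearest gene. ETS1 regions are drawn above them in red; Ago2 holds 5, Furin and Cd2 3 each, and Ets1, Cd69 and Ikzf1 none.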

How the data were processed

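The files used are peak lists, 1 per library, of broad peaks with MACS2 naming, per the names inside the deposited files. The submitters' processing notes name BWA and the build GRCm38. For versions, peak calling options and the use of a control, nothing was given in the sources used here. The deposited lists have 9 columns: a score derived from q, the authors' fold ratio over background, −log10 p and −log10 q. These are the authors' values and were used to rank and filter peaks within a list.

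Peaks of both libraries of a group that overlapped by 1 bp or more were joined, and regions with a peak in each were kept. The rank of a region is the percentile of its best −log10 q in the weaker library. Gene starts came from RefSeq on GRCm38.p6 with windows of 2 kb; 17492 genes had a stranded start and 4395 were placed by both ends. The 475 genes of the 21 lists matched by symbol. Overlaps were computed in Python 3.11.15 with numpy 2.4.6 and pandas 2.3.3 and tested on simulated data; exact permutation tests used scipy 1.17.1. No count test was possible without counts, and no region or gene was tested, so counts are set beside those over all genes or regions. Named genes are all of the Ets1 locus list, 10 regions per rule (best ranked with both, with H3K27ac alone and with ETS1 alone, widest, most ETS1 regions) and, per list, up to 4 with both, up to 4 with H3K27ac alone and all with ETS1 alone. Some members that counts include are not reported here by name. Other members named were picked after their values were seen, as was Tbx21 for its promoter. The members and the lists were chosen with earlier results of these data known.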

Additional observations from a re-analysis of the deposited data

How the results depend on the processing

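Spread here is the SD between the values of the 2 single ETS1 libraries, and a value counted as moved when it differed by more than that, or a count by more than 1.5 times. Requiring a −log10 q of at least 5 moved the share of ETS1 regions with H3K27ac to 48.3%, H3K27ac regions with ETS1 to 14.9%, ETS1 regions near a start to 92.2%, ETS1 in the widest decile of H3K27ac to 7.03%, in the top decile by rank to 17.7%, H3K27ac in the top decile of ETS1 by rank to 43.7%, genes with both to 686 and the recall of ETS1 regions in both Ets1-SE-KO libraries to 96.4%, against 69.8% in the result reported. Counting ETS1 in either library, added after the data were seen, moved the same shares to 46.1%, 62.7%, 39.9%, 74.3%, 98.6%, 87.3% and the recall to 27.3%. Equal numbers of 14013 peaks per library moved H3K27ac regions with ETS1 to 55.2% and H3K27ac in the top decile of ETS1 to 88.8%. Ranks by fold moved the last to 96.1%. With 1 library left out, the ranges were 52.1% to 87.5%, 32.9% to 59.9%, 44.7% to 76.7% (76.7% reported), 49.96% to 71.3% (46.7% reported), 87.4% to 97.8%, 92.0% to 95.8%, 7400 to 8641 genes and a recall of 31.97% to 91.6%; the lowest recall is without ETS1 library 1 and the highest without Ets1-SE-KO library 2. A 50% overlap and intersections moved none of these 8 results. Windows of 1 or 5 kb and both ends of every gene, which bear on the share near a start and the genes with both, moved neither, and joined acetylated regions, run for the share of H3K27ac regions with ETS1 and for the widest decile, moved neither. Of 2004 values of further results, lists and named genes, 1763 counted as the same and 241 moved. List counts were judged by the 1.5 times rule, and a named gene by whether it kept or lacked both as before. Of 57 named genes with both, 52 kept it with equal lists and 4 with a −log10 q of at least 5. Of the 80 named genes without both, 36 gained it with ETS1 library 2 on its own and 7 with library 1 on its own. No paired analysis was possible because no result across regions or genes comes from a test. Depth cannot be read from the lists, so a region missing from a list is not shown to be unbound or unacetylated.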
